A study of Homo sapiens with 18 samples.

Results

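Bone morphogenetic protein (BMP) ligands and the genes that BMP signalling is best known to switch on were examined by name in RNA-seq of human induced pluripotent stem cells (iPSCs) lacking PCGF6. The group comprised 10 genes of the 57133 in the count table, namely the ligands BMP2, BMP4 and BMP7 and the response genes ID1, ID2, ID3, ID4, MSX1, MSX2 and BAMBI. The wild-type (WT) group was the unedited PGP1 iPSC line, an established human line, with 2 libraries. Both PCGF6-KO groups were derived from that line by CRISPR-Cas9 with paired guides to the first exon of PCGF6, with 2 libraries of clone 1 and 2 of clone 2. Each carried a deletion on both alleles and was grown from 1 edited colony, so each knockout group stands for 1 clone. Cells of all groups were kept in mTeSR1, a medium that maintains pluripotency, on Matrigel. PCGF6 is the subunit that defines PRC1.6, a Polycomb complex that represses transcription and is brought to promoters by DNA-binding partners such as E2F6 and MAX.

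BMPs are secreted proteins of the TGF-β family. They bind paired type I and type II serine/threonine kinase receptors, and the type I receptor phosphorylates SMAD1, SMAD5 and SMAD9, which enter the nucleus with SMAD4. ID genes are the most general readout of this pathway, and encode helix-loop-helix proteins that lack a DNA-binding region and hold E proteins away from DNA. MSX1 and MSX2 are homeobox repressors switched on by BMPs in many embryonic tissues, and BAMBI is a pseudoreceptor that dampens BMP and TGF-β signalling. In human pluripotent cells, added BMP4 is used to drive differentiation towards mesoderm, amnion-like and trophoblast-like fates.

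All 10 genes were higher in PCGF6-KO than in WT, and for each of them the 4 knockout libraries lay above both WT libraries. The sum of their levels was 163 to 205 CPM (counts made comparable between libraries by their totals and TMM factors) in WT and 862 to 1251 CPM in PCGF6-KO. Fold changes in mean CPM ran from 1.86 for BMP7 to 78.1 for MSX2. A gene was called changed at a Benjamini-Hochberg adjusted p under 0.05 over the 17672 genes tested and an absolute log2 fold change over 0.6, by edgeR's quasi-likelihood test. By that rule 10 of 10 genes were higher in PCGF6-KO, where 14.9% of all tested genes were called higher and 8.70% lower. The 10 genes were chosen with earlier results of these data known, so this count is a description and does not test the group. Their median log2 fold change was 3.51, against 0.00 over all tested genes. Non-overlap of all knockout and WT libraries in the higher direction was found for 29.5% of tested genes. Of the 10, 8 were over the filter on low counts in both WT libraries. MSX1 and MSX2 were over it in 1 WT library each and passed through the knockout libraries. RNA-seq of whole cultures cannot tell a larger number of cells of a type from more RNA per cell, which holds for every value here.

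The libraries held 15877396 to 18918609 counts. Replicates differed by more than counting error, since their chi-square per degree of freedom was 2.40 (WT), 4.50 (clone 1) and 3.21 (clone 2). Counts of PCGF6 itself were 268 and 300 for WT, 99 and 103 for clone 1 and 187 and 159 for clone 2, and the gene was lower in PCGF6-KO by the same test (log2 fold change −1.15 ± 0.27 SE, adjusted p = 0.00914). Counts over the whole gene do not show whether the deleted part of the first exon was read. Pluripotency markers were present in all libraries, with a summed level of 6855 to 7154 CPM in WT and 5793 to 6036 CPM in PCGF6-KO, and of 7 such genes SOX2 alone was called lower (log2 fold change −0.69). Under the fold threshold, DPPA4 (−0.44, edgeR adjusted p = 0.00111), L1TD1 (−0.40, adjusted p = 0.000538) and LIN28A (−0.29, adjusted p = 0.0142) were also lower. NANOG was higher (0.40, adjusted p = 0.0139), likewise under it, and POU5F1 (0.01) and TDGF1 (0.00) did not pass the adjusted p. Against WT, SOX2 was at −0.41 in clone 1, under the fold threshold, and at −1.04 in clone 2. Primitive streak and mesoderm markers rose in the same libraries. Their summed level was 6.47 to 6.51 CPM in WT and 654 to 848 CPM in PCGF6-KO. Called higher were 6 of 6 tested, TBXT and EOMES among them, against 14.9% of all tested genes. Of these 6, 2 were over the filter on low counts in both WT libraries. The rest, TBXT and EOMES included, passed it through the knockout libraries. The part of these markers in the changes of the BMP genes was not tested.

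Promoter sequences of 8 of the 10 genes were read from RefSeq (GRCh38.p14), as the 250 bases before each annotated start. The 4 shown here overlap no annotated exon, range from many SMAD motifs to none, and include the gene with the largest fold change, MSX2. Capitals mark GGCGCC, a GC-rich element bound by SMAD1 and SMAD5, and CAGAC or its reverse complement GTCTG, the core of the SMAD-binding element. BAMBI lies on chr10:28677271-28677509 (forward strand, cut at the first annotated exon), ID3 on chr1:23559502-23559751 (reverse), ID4 on chr6:19837120-19837369 (forward) and MSX2 on chr5:174724332-174724581 (forward).
BAMBI: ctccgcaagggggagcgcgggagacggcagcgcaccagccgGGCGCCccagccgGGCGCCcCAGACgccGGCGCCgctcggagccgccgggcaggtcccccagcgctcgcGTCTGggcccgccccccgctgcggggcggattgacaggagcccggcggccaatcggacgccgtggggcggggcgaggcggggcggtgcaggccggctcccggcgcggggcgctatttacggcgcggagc
ID3: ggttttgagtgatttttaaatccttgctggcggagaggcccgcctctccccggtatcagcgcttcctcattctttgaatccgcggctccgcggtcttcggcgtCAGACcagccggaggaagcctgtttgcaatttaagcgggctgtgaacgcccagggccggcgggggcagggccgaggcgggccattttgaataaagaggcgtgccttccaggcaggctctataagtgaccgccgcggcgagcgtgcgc
ID4: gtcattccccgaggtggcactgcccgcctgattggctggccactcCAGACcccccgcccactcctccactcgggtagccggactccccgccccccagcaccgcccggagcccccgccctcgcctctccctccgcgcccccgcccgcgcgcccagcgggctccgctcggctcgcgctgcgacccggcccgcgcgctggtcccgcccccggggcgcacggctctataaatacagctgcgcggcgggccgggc
MSX2: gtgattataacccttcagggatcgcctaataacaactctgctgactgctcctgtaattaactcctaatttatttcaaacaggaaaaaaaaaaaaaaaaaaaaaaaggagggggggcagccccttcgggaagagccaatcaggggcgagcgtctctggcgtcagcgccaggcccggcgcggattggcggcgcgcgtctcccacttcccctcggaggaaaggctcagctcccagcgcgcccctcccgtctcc
The BAMBI window held GGCGCC 3 times, beginning 209, 196 and 181 bases before the start, and CAGAC on either strand 2 times, at 189 and 140 bases. For comparison, 35116 promoter windows were read, each the 250 bases before a RefSeq start. GGCGCC was present in 16.4% of these, and 3 or more times in 0.527%. ID3 held CAGAC once, 147 bases before the start, and ID4 once, at 205 bases, a motif found in 38.0% of all windows. Besides, ID4 had TATAAA, the TATA box, 29 bases before its start, and ID1 had it at 33 and at 31 bases in overlapping copies on opposite strands, where 10.7% of all windows held it on either strand. BMP4 has 3 windows, which held CAGAC 46 bases before the start in the first and GGCGCC at 232 and CAGAC at 181 bases in the third. MSX1, MSX2 and ID2 held none of these. Of the motifs of PCGF6's partners, CACGTG, the E-box bound by MYC and MAX, was in 1 of the 3 windows of BMP4, 83 bases before the start (6.34% of all windows). GCGGGAA, the E2F6 motif, was in no window of the 8 genes (5.52% of all windows, both strands searched for every motif). The shares of all windows were not matched for base composition. GC content was 81.2% in the BAMBI window and 55.6% in the MSX2 window, so GC-rich motifs are not equally likely in both. These matches describe letters in a window and not binding.

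BMP4, the ligand most used to differentiate pluripotent cells, had 7.25 and 8.03 CPM in WT, 92.8 and 86.1 CPM in clone 1, and 143 and 133 CPM in clone 2. The groups were far apart, and the lowest knockout library stood 10.7-fold above the highest WT library. The log2 fold change was 3.89 ± 0.26 (SE), or 14.9-fold in mean CPM, with an edgeR adjusted p of 6.86e-06. BMP4 lies on chromosome 14 at 53949736-53958761 (GRCh38, reverse strand), and 506 of its 3096 exonic bases are shared with ENSG00000287156 on the other strand. The strand setting of the counting is not given in the sources used here, so reads of the overlap could belong to either gene.

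BMP2, the closest relative of BMP4, had 3.56 and 3.90 CPM in WT, 28.8 and 28.5 CPM in clone 1, and 63.1 and 65.0 CPM in clone 2. It was low in both WT libraries, intermediate in clone 1 and highest in clone 2, with no overlap. Its log2 fold change was 3.63 ± 0.46 (SE), 12.4-fold in mean CPM (edgeR adjusted p = 0.000346). The gene lies on chromosome 20 at 6767686-6780246 on the forward strand.

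BMP7, a ligand of the BMP5/6/7/8 branch, had 12.7 and 13.8 CPM in WT, 21.2 and 18.3 CPM in clone 1, and 30.7 and 28.4 CPM in clone 2. It was the ligand with the most counts in WT and the one that rose least. The log2 fold change was 0.89 ± 0.21 (SE), 1.86-fold in mean CPM (edgeR adjusted p = 0.00932). Without either WT library the adjusted p was over the threshold, at 0.0865 without replicate 1 and 0.0583 without replicate 2, with log2 fold changes of 0.84 and 0.95. In clone 1 alone it was 0.58 (adjusted p = 0.000148), under the fold threshold, and in clone 2 alone 1.16 (adjusted p = 1.29e-09). BMP7 lies on chromosome 20 at 57168753-57266641 on the reverse strand.

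The make-up of the 3 ligands differed between the groups in these libraries. In TPM, which divides the counts of each gene by its length and sets every library to the same total, BMP4 and BMP7 were level in WT, at 10.4 and 11.6 TPM for BMP4 and 10.4 and 11.3 TPM for BMP7. In PCGF6-KO, BMP4 had 123 to 190 TPM and BMP7 14.9 to 23.2 TPM. As a share of the summed TPM of the 3 ligands, BMP7 made up 41.3 and 40.8% in WT and 7.90 to 9.31% in PCGF6-KO, while BMP4 went from 41.3 and 41.8% to 64.9 to 71.7%. BMP2 made up 17.4% in both WT libraries, 19.0 and 20.2% in clone 1 and 25.2 and 27.2% in clone 2. These shares are given as descriptions without a test.

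**Figure D1:**
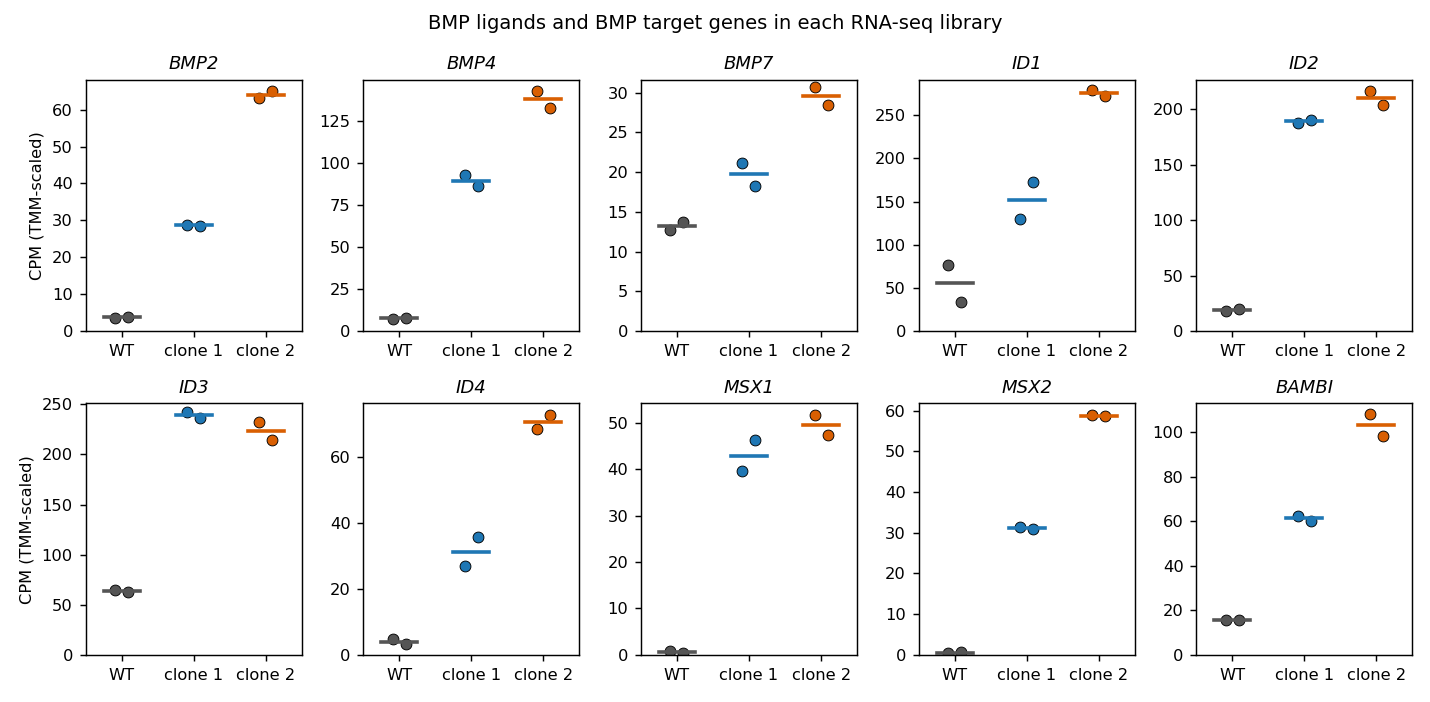
TMM-scaled CPM (linear axis from 0, a separate scale in each panel) of the 10 genes in WT, PCGF6-KO clone 1 and PCGF6-KO clone 2; points are libraries (2 per group) and bars are group means. For every gene the knockout libraries lie above both WT libraries, and ID1 has the widest spread between the WT libraries, at 77.1 and 34.1 CPM.

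All 4 ID genes rose. ID2 had 17.8 and 20.4 CPM in WT, 187 and 190 CPM in clone 1, and 216 and 203 CPM in clone 2. Both clones stood far above WT, and the log2 fold change was 3.38 ± 0.10 (SE), 10.4-fold in mean CPM (edgeR adjusted p = 9.07e-08). ID2 lies on chromosome 2 at 8678845-8684461 (forward), with 145 exonic bases shared with ID2-AS1 on the other strand.

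ID3 had 64.4 and 62.9 CPM in WT, 242 and 237 CPM in clone 1, and 232 and 214 CPM in clone 2. Its replicates were the closest of the ID genes in WT, and it was the only one of the 10 genes whose clone 2 libraries lay below both clone 1 libraries. The log2 fold change against WT was 1.86 ± 0.07 (SE), 3.63-fold (edgeR adjusted p = 3.78e-07). ID3 lies on chromosome 1 at 23557926-23559501 (reverse).

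ID4, the ID gene with the fewest counts, had 4.79 and 3.30 CPM in WT, 26.9 and 35.6 CPM in clone 1, and 68.5 and 72.7 CPM in clone 2. The 3 groups did not overlap, and clone 2 was highest. Its log2 fold change was 3.65 ± 0.49 (SE), 12.6-fold (edgeR adjusted p = 0.000466). ID4 lies on chromosome 6 at 19837370-19842197 (forward).

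ID1 had 77.1 and 34.1 CPM in WT, 130 and 172 CPM in clone 1, and 279 and 272 CPM in clone 2. The WT libraries differed 2.26-fold, and the lowest knockout library was 1.69-fold above the higher of them. The log2 fold change was 1.94 ± 0.39 (SE), 3.84-fold (edgeR adjusted p = 0.00463). Among the 4467 genes whose summed WT count was within 2-fold of that of ID1, no other had so large a ratio between the WT libraries, and their median ratio was 1.05. For ID1 the log2 fold change was 2.64 without WT replicate 1 and 1.47 without WT replicate 2, and was called in both cases (adjusted p at most 0.0444). The gene lies on chromosome 20 at 31605283-31606515 (forward).

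Per length, ID1 and ID3 were the leading ID genes in every library. The order of ID1 and ID3 was not the same in both WT libraries, with 278 and 123 TPM for ID1 and 159 and 156 TPM for ID3. In clone 2 ID1 led, with 927 and 910 TPM against 530 and 492 TPM for ID3. ID2 went from 7.44 and 12.6% of the summed TPM of the 4 ID genes in WT to 19.9 to 25.2% in PCGF6-KO, and ID4 from 1.88 and 1.92% to 3.41 to 6.69%. The summed CPM of the 4 genes was 121 and 164 in WT and 586 to 796 in PCGF6-KO. Transcripts of their binding partners, the E proteins TCF3, TCF4 and TCF12, summed to 614 to 632 CPM in WT and 607 to 625 CPM in PCGF6-KO, and 0 of 3 were called in either direction. Their log2 fold changes were −0.01 for TCF3, −0.02 for TCF4 and −0.04 for TCF12, with SEs of 0.06, 0.08 and 0.07. At an unadjusted p under 0.05 edgeR gave 0 of the 3, and DESeq2 called 0.

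MSX1 and MSX2 had the largest fold changes of the 10 genes. MSX1 had 14 and 8 counts in the WT libraries (0.860 and 0.479 CPM), and 39.5 and 46.3 CPM in clone 1 and 51.6 and 47.3 CPM in clone 2. It was close to absent in WT, and all 4 knockout libraries were far above. The log2 fold change was 6.10 ± 0.22 (SE), 69.0-fold in mean CPM (edgeR adjusted p = 2.45e-07).

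For MSX2 there were 8 and 11 counts in WT (0.491 and 0.659 CPM), against 31.3 and 30.9 CPM in clone 1 and 58.8 and 58.7 CPM in clone 2. Replicates of each clone were nearly equal, and clone 2 was higher. MSX2 had a log2 fold change of 6.27 ± 0.50 (SE), 78.1-fold (edgeR adjusted p = 2.04e-05). With so few WT counts both fold changes rest on few reads: leaving out one WT library moved the log2 fold change of MSX1 between 5.74 and 6.57 and that of MSX2 between 6.07 and 6.49. MSX1 lies on chromosome 4 at 4859665-4863936 and MSX2 on chromosome 5 at 174724582-174730896, both on the forward strand.

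BAMBI had 15.7 and 15.8 CPM in WT, 62.4 and 60.1 CPM in clone 1, and 108 and 98.3 CPM in clone 2. The pseudoreceptor thus stood in 3 separate steps, WT lowest and clone 2 highest. Its log2 fold change was 2.38 ± 0.27 (SE), 5.23-fold (edgeR adjusted p = 0.000172). It lies on chromosome 10 at 28677510-28682932 (forward).

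**Figure D2:**
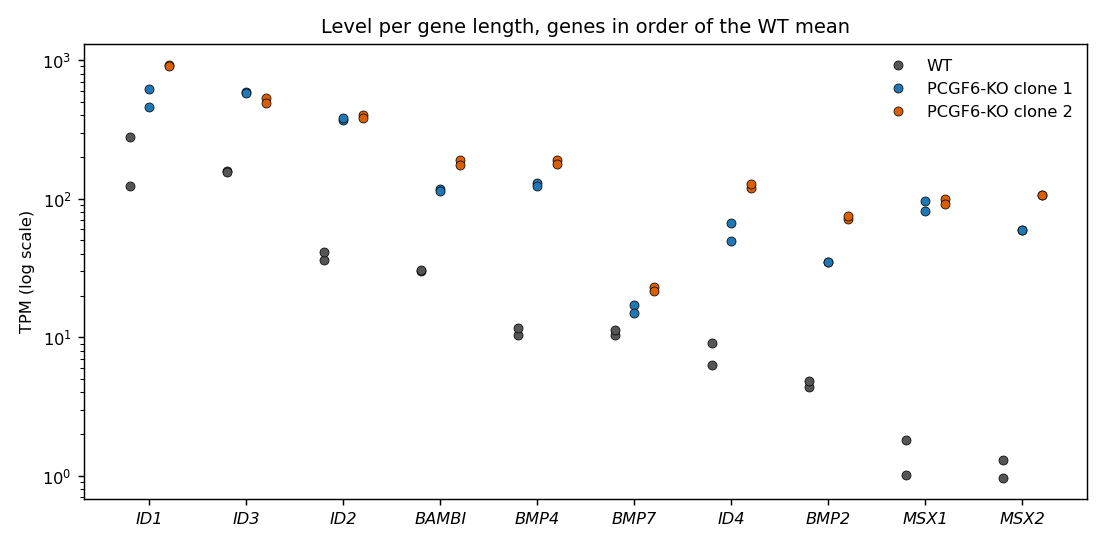
TPM on a log axis for the 10 genes, ordered by their WT mean; each point is 1 library (WT, clone 1 or clone 2). ID1 and ID3 lead in WT at 123 to 278 TPM and MSX1 and MSX2 are lowest at 0.961 to 1.80 TPM, whereas in PCGF6-KO BMP7 is lowest at 14.9 to 23.2 TPM.

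The order of the genes by length-scaled level differed between WT and PCGF6-KO. In WT it ran from ID1 and ID3 through ID2 (35.9 and 41.2 TPM), BAMBI (30.0 and 30.5 TPM), BMP4 and BMP7, ID4 (9.07 and 6.27 TPM) and BMP2 (4.39 and 4.82 TPM) to MSX1 (1.80 and 1.01 TPM) and MSX2 (0.961 and 1.29 TPM). Neighbours whose libraries overlapped were ID1 and ID3, BMP4 and BMP7, and MSX1 and MSX2. In clone 2 ID1, ID3 and ID2 were again the first 3. BMP4 (190 and 178 TPM) overlapped BAMBI (192 and 175 TPM) there, and MSX2 (106 and 107 TPM) and MSX1 (99.7 and 92.0 TPM) had passed BMP2 (71.8 and 74.5 TPM) and BMP7. In clone 1 ID1 (458 and 615 TPM) overlapped ID3 (584 and 579 TPM), and ID4 (49.8 and 66.8 TPM) overlapped MSX2 (59.9 and 59.8 TPM).

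The clones were next compared with each other, since each is a single line. Against WT, 9 of the 10 genes were called higher in clone 1 (16.0% of all genes called higher) and 10 of 10 in clone 2 (16.9%). Log2 fold changes against WT ran from 0.58 to 5.99 in clone 1 and from 1.16 to 6.65 in clone 2. Against clone 1, clone 2 was higher for 6 of the 10 genes and lower for 0 by edgeR (0 lower at an unadjusted p under 0.05, and 5 higher and 0 lower by DESeq2), where 3.73% of tested genes were called higher and 4.14% lower. Both clone 2 libraries lay above both clone 1 libraries for 9 of the 10 genes, a pattern that 28.9% of tested genes showed. ID3 lay wholly below, as 26.6% of tested genes did.

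By edgeR the difference between clone 2 and clone 1 on the log2 scale was largest for ID4 (1.18 ± 0.11 SE, adjusted p = 8.03e-09) and BMP2 (1.16 ± 0.09, adjusted p = 2.24e-10). MSX2 (0.92), ID1 (0.87), BAMBI (0.75) and BMP4 (0.62) followed. ID2 (0.15 ± 0.06 SE, adjusted p = 0.0971), ID3 (−0.10 ± 0.06, adjusted p = 0.284) and MSX1 (0.21 ± 0.10, adjusted p = 0.14) did not pass. BMP7 passed the adjusted p (0.000148) but not the fold threshold, at 0.58 ± 0.10, and was called without clone 1 replicate 1 (0.70) or clone 2 replicate 2 (0.64). With DESeq2 the adjusted p for ID1 was 0.283. The call for BMP4 was lost at 0.57 without clone 1 replicate 2 or clone 2 replicate 1, and at 0.60 with upper-quartile normalization. PCGF6 itself was higher in clone 2 than in clone 1 by 0.90 (adjusted p = 5.44e-05). Of 6 tested primitive streak and mesoderm markers 3 were higher in clone 2, TBXT by 0.75. EOMES went the other way, at −0.53 (edgeR adjusted p = 5.0e-06), under the fold threshold. SOX2 was called lower (−0.63). The part of these markers in the difference between the clones was not tested.

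**Figure D3:**
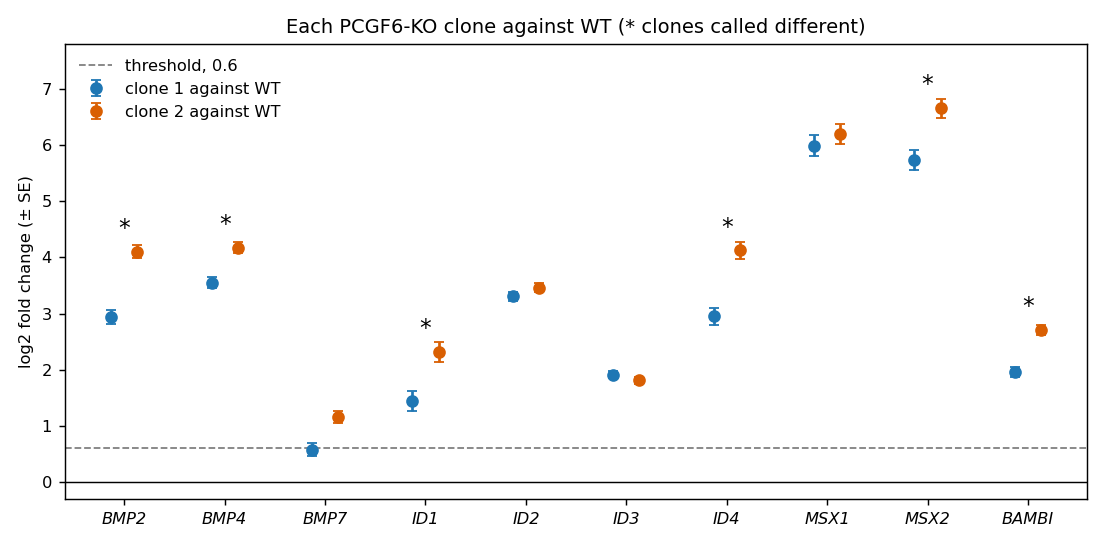
Log2 fold change against WT for each clone, from the fit with 3 groups; bars are ± 1 SE, the dashed line is the 0.6 threshold, and asterisks mark genes called different between the clones. BMP2, BMP4, ID1, ID4, MSX2 and BAMBI carry an asterisk, and clone 1 is below the line for BMP7 at 0.58.

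Other genes of the pathway were read from lists by role. Of 57 genes, 50 were tested, 27 were higher in PCGF6-KO, 2 were lower and 21 were not called, against 14.9% and 8.70% of all genes tested. Genes that were silent in WT pass the filter through the knockout libraries. The 34 over the filter in both WT libraries were therefore also counted apart, and 13 of those were higher. The 14.9% covers all tested genes, and the share for genes over the filter in both WT libraries is not given here. Several of the pathway genes share exonic bases with another annotated gene, most of all RGMB (3045 bases) and TFAP2A (1379 bases) among those named below. Reads there could belong to either.

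Of the other BMP and GDF ligands, 5 of 6 tested were higher and 5 of 11 were not tested. Only 1 of the 6, BMP6, was over the filter in both WT libraries. BMP5, of the same branch as BMP7, had 1 count in each WT library, 156 and 149 counts in clone 1, and 87 and 115 counts in clone 2, at least 38.9-fold higher against a floor of 3 counts in each WT library. GDF6, which acts in skeletal and eye development, had 2 and 3 counts in WT and 71 to 108 in PCGF6-KO (at least 29.6-fold). BMP10, a ligand known from the developing heart, had no counts in WT and 10 to 32 in PCGF6-KO (at least 5.88-fold). BMP6 (log2 fold change 1.61, edgeR adjusted p = 0.0312) and GDF7 (2.096, adjusted p = 0.00223) had larger counts in PCGF6-KO from a low WT level, and BMP6 lost its call without any 1 of the WT or clone 2 libraries (adjusted p 0.0502 to 0.211). BMP8B was not called (0.18).

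Of 10 receptors and co-receptors tested, 3 were higher and 1 lower. The main type II receptor, BMPR2, had 36.0 and 38.8 CPM in WT and 68.5 to 91.4 CPM in PCGF6-KO, with a log2 fold change of 1.13 ± 0.12 SE (edgeR adjusted p = 0.000129). RGMB, a co-receptor also called DRAGON, rose from 10.6 and 9.47 CPM to 37.6 to 45.6 CPM (2.04), and ACVRL1, the endothelial type I receptor ALK1, from 5 and 4 counts to 20 to 51 counts (2.85), a call lost without WT replicate 2 (adjusted p = 0.0639). ENG, the endoglin co-receptor, fell by 0.64 on the log2 scale, and lost its call without WT replicate 1 (−0.55, adjusted p = 0.0986) or clone 1 replicate 2 (−0.60). Of the type I receptors, BMPR1A was at 0.56 (adjusted p = 0.000743), under the fold threshold, and BMPR1B at 1.01 (adjusted p = 0.0518).

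Among SMADs and SMURFs, 3 of 8 were higher. SMAD6, an inhibitory SMAD, had 2.70 and 2.098 CPM in WT, 7.90 and 9.46 CPM in clone 1, and 17.5 and 15.7 CPM in clone 2, in the same 3 steps as BAMBI (log2 fold change 2.39 ± 0.38 SE, edgeR adjusted p = 0.00117). SMAD7, the general inhibitory SMAD, passed at 0.63 and lost the call without WT replicate 1 or either clone 2 library, at 0.53 to 0.59. SMAD9 rose by 2.40 from 21 and 14 counts in WT, with the call lost without either WT library (adjusted p 0.0791 and 0.131). The signal carriers SMAD1 (0.02), SMAD5 (−0.31) and SMAD4 (−0.33) were not called. Of these, SMAD5 (edgeR adjusted p = 0.0203) and SMAD4 (adjusted p = 0.0111) passed the adjusted p and were lower, under the fold threshold.

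Secreted antagonists and modulators formed the largest of these lists, and 9 of 15 tested were higher and 1 lower. Of the 10 over the filter in both WT libraries, 5 were higher. GREM1, a DAN-family antagonist of BMP2 and BMP4, had 17 counts in each WT library and 1104 to 1546 counts in the knockout, and its log2 fold change was 6.18 ± 0.32 SE (edgeR adjusted p = 1.59e-06). FST, follistatin, which binds activins and some BMPs, rose from 10.0 and 11.1 CPM to 218 to 316 CPM (4.63) and was lower in clone 2 than in clone 1 (−0.42, adjusted p = 2.2e-05, under the fold threshold). CER1, Cerberus, rose from 10.4 and 11.6 CPM to 101 to 127 CPM (3.40). NOG, noggin, went from 1 and 6 counts to 60 to 91 counts, a log2 fold change of 4.30 from few WT reads, which was 3.56 without WT replicate 1 and 5.98 without WT replicate 2. Among the other antagonists called higher were BMPER (5.48), SOSTDC1 (1.94), CHRD (1.58) and NBL1 (1.30), and CHRDL1 fell by 0.67. BMPER, with 1 and 5 counts in WT, was at 4.78 without WT replicate 1 and 6.94 without WT replicate 2. CHRD was at 2.18 without WT replicate 1 and lost its call without WT replicate 2 (1.16, adjusted p = 0.0858), and CHRDL1 lost its own without either WT library or either clone 2 library.

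Of 8 further transcription factors known to respond to BMP, 7 were higher. In both WT libraries 3 of the 8 were over the filter, and 2 of those were higher. GATA3, also an amnion and surface ectoderm marker, had 15 and 11 counts in WT and 240 to 468 in PCGF6-KO (log2 fold change 4.63). TFAP2A, another of those markers, had 6 and 5 counts in WT and 237 to 294 in PCGF6-KO (5.47). These transcription factors specify ectodermal and extraembryonic cells. TBX3, a T-box repressor, had 2 counts in each WT library and 359 to 1149 in PCGF6-KO (at least 224-fold). DLX5, a homeobox gene, had 3 and 0 counts in WT and 60 to 101 in PCGF6-KO (at least 25.4-fold). GATA2 (4.35), ATOH8 (2.98) and DLX3 (1.55) were also higher, DLX3 losing its call without either WT library (adjusted p 0.0816 and 0.0737), and HEY1 was not called (0.04). ATOH8, with 12 and 3 counts in WT, was at 4.29 without WT replicate 1 and 2.30 without WT replicate 2.

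**Figure D4:**
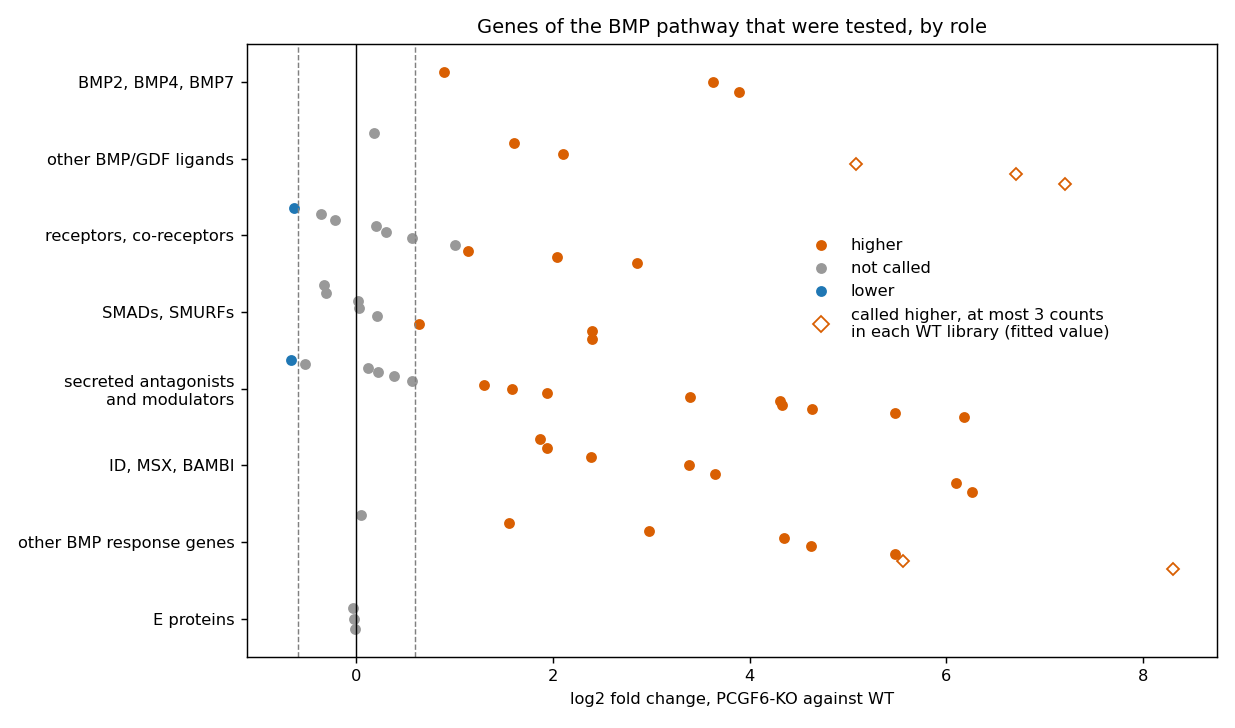
Log2 fold change, PCGF6-KO against WT, for the 10 genes and 50 other tested genes of the pathway by role; filled points are fitted values of genes called higher, not called or called lower, open diamonds are genes with at most 3 counts in each WT library, and dashed lines are the 0.6 threshold in both directions. The E proteins lie at 0, while GREM1 of the antagonists reaches 6.18 and MSX2 of the response genes 6.27.

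Markers of other cell types moved in the same libraries, where 14.9% of all tested genes were called higher and 8.70% lower. Endoderm markers were higher in 4 of 4 (1.498 to 1.84 CPM summed in WT, 21.9 to 45.5 CPM in PCGF6-KO). Amnion and surface ectoderm markers were higher in 3 of 5 tested (10.8 to 13.02 CPM, then 41.4 to 59.1 CPM), and of that list GABRP (0.00) and KRT7 (−0.50) were not called. Against WT, KRT7 was called lower in clone 2 alone (−1.07) and not in clone 1 (−0.09). Neuroectoderm markers were higher in 3 of 4 tested (278 to 324 CPM, then 596 to 715 CPM), mostly NES. Fibroblast markers were higher in 4 of 5 (832 to 843 CPM, then 1442 to 1572 CPM), and THY1 was lower. The WT sum was mostly THY1, which had 620 and 605 CPM in WT and 258 to 284 CPM in PCGF6-KO. Of the markers tested, 1 endoderm, 3 amnion and surface ectoderm, 1 neuroectoderm and 3 fibroblast markers were over the filter in both WT libraries. Called higher among them were 1, 1, 1 and 2, and the other markers called higher were tested through the knockout libraries. In WT the endoderm marker SOX17, the mesoderm markers HAND1 and MESP1, and LUM and DCN of the fibroblast list were at 0 in both libraries, and TBXT had 0 and 12 counts. Their part in the levels of the BMP genes was not tested.

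The gene of the table whose log2 CPM was closest to that of each gene over the 6 libraries was found by Pearson correlation among 13632 genes. BMP2 was closest to ADAM19 (r = 0.9998), BMP4 to LINC00623 (0.9999), BMP7 to TPX2 (0.998) and ID2 to GSTO1 (0.9999). ID4 was closest to SLITRK2 (0.9991), MSX2 to LIX1 (1.000) and BAMBI to LOXL2 (0.9997). ID1 was closest to AC102945.2 (0.9987), and 8 genes had an r over 0.99 with it, against 29 for BMP7 and 201 to 536 for the other 8 genes. The 6 points are 3 pairs of replicates that share genotype and clone, so these values only describe a shared pattern of group levels.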

How the data were processed

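RNA-seq of WT PGP1 cells (2 libraries) and PCGF6-KO clones 1 and 2 (2 libraries each) was used; ChIP-seq was not analysed here. The authors deposited raw counts per gene with gene lengths: reads were trimmed with Trim Galore (0.6.2), aligned to GRCh38 with HISAT2 (2.1.0) and counted with featureCounts, per the submitters' processing notes and the methods. The annotation release and strand setting are not given in the sources used here.

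From the counts, edgeR (4.0.16, R 4.3.3) filtered low counts with filterByExpr on 2 genotypes, scaled libraries by TMM and ran glmQLFit and glmQLFTest, with Benjamini-Hochberg adjustment over 17672 genes. Calls needed an adjusted p below 0.05 with a log2 fold change beyond 0.6 in size. A second fit, on 3 groups, compared WT with either clone, and clone 2 with clone 1. TPM used the deposited lengths. Folds against at most 3 counts in each WT library are bounds. The first fit took the 4 knockout libraries of both clones as 1 group, so its spread mixes the difference between the clones with that between replicates. For BMP2 the SE was 0.46 in that fit and 0.13 for clone 1 against WT in the second. The labels name replicates and do not state separate cultures, so p-values measure the spread between these libraries and not between independent knockouts. Libraries of 15877396 to 18918609 counts limit genes at a few counts.

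All 10 genes were named, and from the other lists each called gene plus defining genes that were not called; a few items under this rule are not reported here. For likeness, the average log2 CPM (prior count 2) had to reach 1. The genes and lists were chosen with earlier results of these data known. Alternatives were DESeq2 (1.42.0), scaling by RLE or upper quartile, no filter, at least 10 counts in every library, an unadjusted threshold, the mean of the clones, the replicate block and leaving out each library. Positions came from GENCODE release 44 and promoters from RefSeq, read with Python 3.11.15 (pandas 2.3.3, numpy 2.4.6, matplotlib 3.10.9). Tested on simulated counts were the main edgeR fits, the replicate block, the mean of the clones, and DESeq2 for PCGF6-KO against WT. The other alternatives were not.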

Additional observations from a re-analysis of the deposited data

Results flagged for a closer look

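Clone 2 differed from clone 1 under the same contrast with WT for the genes given here, by edgeR's test of the difference itself. Of BMP2 and BMP4, the log2 differences (clone 2 minus clone 1) were 1.16 and 0.62. Of the response genes, they were 0.87 for ID1, 1.18 for ID4, 0.92 for MSX2 and 0.75 for BAMBI. In the other lists they were 1.23 for BMP6, 1.55 for BMP10, 1.28 for ACVRL1, 1.65 for SMAD9, 0.94 for SMAD6, 1.19 for BMPER, 1.499 for GATA2, 0.79 for GATA3, 0.81 for DLX5 and 1.68 for TBX3. All of these were higher in clone 2. They are genes called both in PCGF6-KO against WT and between the clones, so they are not a count over the lists. Of the 50 other pathway genes tested, 12 were called higher in clone 2 and 1 lower (BMPR1B, −0.76, not called by DESeq2). Over all tested genes, 3.73% were called higher and 4.14% lower. BMP10 had 10 counts in each clone 1 library and 22 and 32 in clone 2, and ACVRL1 20 and 24 against 51 and 47.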

How the results depend on the processing

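Under all alternatives run, the 10 genes kept the higher direction against WT, and ID2, ID3, MSX1, MSX2, BMP2, BMP4, ID1, ID4 and BAMBI also kept the call wherever they were tested. The number called higher was 8 with at least 10 counts in every library, a filter that leaves MSX1 and MSX2 out, and 9 to 10 when 1 library was left out. BMP7 was the exception: its log2 fold change ran from 0.78 to 1.02 when 1 library was left out, with an adjusted p of 0.0865 without WT replicate 1 and 0.0583 without WT replicate 2, and the cause was not tested. In clone 1 alone BMP7 passed without WT replicate 2 (0.64) or clone 1 replicate 2 (0.69). Of the other pathway genes, 14 were called higher with at least 10 counts in every library, a filter that tests fewer genes, against 27. Those called lower went from 2 to between 0 and 2 when 1 library was left out, the cause of which was not tested. In comparisons of clone 2 with clone 1, DESeq2 gave adjusted p of 0.283 for ID1, 0.0978 for ACVRL1 and 0.134 for DLX5, BMP10 had 0.0562 without clone 1 replicate 1, and DLX5 had 0.0813 without clone 2 replicate 2. Over all genes, 2072 were called higher and 1048 lower without WT replicate 1, 1992 and 1049 without WT replicate 2, and 2630 and 1537 with both. The median log2 fold change of all genes was 0.10 with DESeq2 and with no filter, −0.03 with upper-quartile normalization and 0.00 with TMM. Replicate numbers carry no pairing in the labels, and deviations of same-numbered libraries correlated at 0.02, 0.05 and 0.10. With a replicate block the 10 genes were all still called higher, 26 other pathway genes were higher, BMP6 had an adjusted p of 0.0567, and 2474 genes were higher and 1402 lower overall. Depth limits genes at a few counts in WT, such as MSX1 and MSX2.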

Other observations

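BMPER was called higher in clone 2 than in clone 1 (1.19 on the log2 scale, by edgeR), and FST (−0.42) and NOG (0.43, adjusted p = 0.197) were not called. Of 15 antagonists and modulators tested, 2 were called higher in clone 2 and 0 lower (2 lower at an unadjusted p under 0.05, and 2 higher and 0 lower by DESeq2). Of 8 further response genes, 5 were higher in clone 2 and 0 lower (0 lower at an unadjusted p under 0.05, and 4 higher and 0 lower by DESeq2). Of 10 receptors and co-receptors, 1 was higher (ACVRL1) and 1 lower (BMPR1B, −0.76) by edgeR, and DESeq2 called 0 higher and 0 lower. Over all tested genes, edgeR called 3.73% higher in clone 2 and 4.14% lower. BMP5 was not called, at −0.46 (adjusted p = 0.0765), with 156 and 149 counts in clone 1 and 87 and 115 in clone 2.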
